A study of Mus musculus with 1989 samples.

Results

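The genes described here were 10 members of the E2f and retinoblastoma families: E2f1, E2f2, E2f3, E2f4, E2f7 and E2f8, the dimerization partner Tfdp1, and the pocket protein genes Rb1, Rbl1 and Rbl2. They were taken by name and not by a rule on their values, although earlier results of these data were known. Of the 10, 10 were found among the 8846 genes of the scRNA-seq table, while 124 of the 138317 peaks of the scATAC-seq table had a transcription start of one of them as the nearest start within 100000 bp. The cells were thymocytes of male C57BL/6 mice, an inbred laboratory strain, with no mutant allele or treatment, and the labels give an age of 7 weeks. The scRNA-seq data were 1 droplet library of 1993 cells with 1993 distinct barcodes. The scATAC-seq data were 1626 cells with usable labels, of which 182 were sorted as double-negative (DN), 125 as double-positive (DP), 119 as CD4 and 116 as CD8 cells, and 1084 were total thymocytes from 36 plates. The labels tie no cell to an animal. The library and each sort therefore counted as 1 sample, no test between groups was possible, and the 95% intervals given below (exact Poisson for sums, exact binomial for shares and ratios) cover counting error only.

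E2F proteins are transcription factors that bind the promoters of genes for DNA replication and mitosis, most of them as dimers with a DP protein such as Tfdp1. In resting cells the pocket proteins, which are Rb1 (pRB), Rbl1 (p107) and Rbl2 (p130), hold them in repressive complexes, and phosphorylation of the pocket proteins by cyclin-dependent kinases releases them as a cell enters the cycle. In the thymus, cells divide rapidly after β-selection, as immature single-positive cells (ISPs) and DP blasts (DPblas), and then stop dividing to rearrange the TCRα locus (DPres). E2f1, E2f2 and E2f3 are known as activators, E2f4 mainly acts in repressive complexes, and E2f7 and E2f8 are atypical members that repress without a DP partner.

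The promoters of the members are shown first, because the accessibility measured below lies over them. RefSeq promoter sequences (GRCm38.p6) were given for 8 of the 10 genes, E2f4 and Rb1 being the others. They were searched on both strands for the E2F words TTTCCCGC, TTTCGCGC, TTTGCCGC and TTTGGCGC and for the cell cycle homology region (CHR) word TTTGAA, which has no overlap with the E2F words. Within the 300 bases from 250 before to 50 after a start, an E2F word stood in 6 of the 11 promoters of the members, belonging to 5 of the 8 genes (the 2 Tfdp1 promoters overlap and hold the same site), against 2.28% of the 32544 different mouse promoters of the same length. A CHR word stood in 4 of the 11, in E2f2, E2f3, E2f8 and Rbl2, against 17.8% of all promoters. The 250 bases before the start are printed 5′ to 3′ on the strand of the gene for E2f1, E2f3, E2f7, E2f8, Tfdp1 and Rbl1, the members other than E2f2 whose RNA was higher in dividing cells below, and capitals mark an E2F word or its reverse complement. The word of E2f2 began 39 bases after its start. E2f1 is at chr2:154569427-154569676 on the minus strand, E2f3 at chr13:29986064-29986313 on the minus strand, E2f7 at chr10:110745189-110745438 on the plus strand, E2f8 at chr7:48881597-48881846 on the minus strand, Tfdp1 at chr8:13338501-13338750 on the plus strand, and Rbl1 at chr2:157204535-157204784 on the minus strand.
E2f1: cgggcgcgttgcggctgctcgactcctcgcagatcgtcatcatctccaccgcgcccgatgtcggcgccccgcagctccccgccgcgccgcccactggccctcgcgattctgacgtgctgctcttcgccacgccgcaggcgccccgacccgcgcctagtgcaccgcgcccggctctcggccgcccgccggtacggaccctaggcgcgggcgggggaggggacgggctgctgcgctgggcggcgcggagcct
E2f3: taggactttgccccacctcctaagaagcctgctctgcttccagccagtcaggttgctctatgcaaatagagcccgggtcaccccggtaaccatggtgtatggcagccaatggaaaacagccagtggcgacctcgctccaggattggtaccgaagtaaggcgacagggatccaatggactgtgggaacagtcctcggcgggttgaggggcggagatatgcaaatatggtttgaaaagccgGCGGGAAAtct
E2f7: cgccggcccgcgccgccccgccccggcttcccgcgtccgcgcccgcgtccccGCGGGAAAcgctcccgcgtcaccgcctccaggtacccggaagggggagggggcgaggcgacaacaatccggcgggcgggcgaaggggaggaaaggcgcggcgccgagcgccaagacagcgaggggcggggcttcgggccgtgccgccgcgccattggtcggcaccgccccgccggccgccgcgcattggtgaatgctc
E2f8: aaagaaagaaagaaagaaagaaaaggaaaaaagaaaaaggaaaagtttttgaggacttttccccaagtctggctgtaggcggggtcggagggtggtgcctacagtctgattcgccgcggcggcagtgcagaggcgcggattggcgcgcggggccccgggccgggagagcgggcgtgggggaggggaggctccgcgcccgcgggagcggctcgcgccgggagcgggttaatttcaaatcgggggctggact
Tfdp1: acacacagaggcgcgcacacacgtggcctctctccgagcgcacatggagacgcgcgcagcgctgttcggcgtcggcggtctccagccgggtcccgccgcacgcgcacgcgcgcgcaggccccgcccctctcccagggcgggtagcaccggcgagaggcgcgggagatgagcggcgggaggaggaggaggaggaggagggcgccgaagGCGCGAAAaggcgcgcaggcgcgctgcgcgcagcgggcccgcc
Rbl1: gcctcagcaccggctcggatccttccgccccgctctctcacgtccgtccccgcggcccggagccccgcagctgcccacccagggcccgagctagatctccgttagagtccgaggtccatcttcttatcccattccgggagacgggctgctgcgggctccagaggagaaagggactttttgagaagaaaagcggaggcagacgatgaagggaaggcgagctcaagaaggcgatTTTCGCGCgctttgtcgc
Tfdp1 and Rbl1 held the word TTTCGCGC, with its first base 43 and 18 bases before the start, and E2f3 and E2f7 held TTTCCCGC, the former 11 bases before it and the latter farther upstream. In E2f1 and E2f8 these letters were not in the window, and E2f8 held a CHR word, not capitalized, 20 bases before the start. The E2f1 window lies inside the gene as GENCODE vM21 places it, with its 5′ end on this strand at chr2:154569892. The bases before that end were not searched, so the missing word says nothing of them.

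The RNA values were ranks of the authors' normalized values within a cell, called steps, which stand in for molecules. Each cell was thinned to 1300 steps, and the level of a gene is its steps per 10000 thinned steps. Depth differed between the classes, with a median of 7076 steps and 2817 detected genes per cell for ISP-like cells, 5298 steps and 2357 genes for DPbla-like cells, and 1248 genes for DPre-like cells. The level is therefore a share of the steps of a cell and not an amount of RNA per cell. The cells fell into 16 clusters that were formed without the members and their pathway genes, and the clusters were named after marker genes. The resulting classes were 79 DN-like, 287 ISP-like, 357 DPbla-like, 496 DPre-like, 331 DPsel-like (under selection), 223 CD4sp-like and 151 CD8sp-like (single-positive) cells, with 31 nonconventional lymphocyte (NCL)-like and 38 antigen-presenting cell (APC)-like cells. The dividing cells were cluster 2, which was ISP-like, the DPbla-like clusters 1, 10 and 13, and cluster 9. Cluster 9, with 113 cells led by Ung, Ccne2 and Rad54l, took the name ISP-like with a marker score of 0.283 against 0.224 for DPbla, so its name is uncertain while its place among dividing cells rests on Mki67 in 62.8% of its cells. Of the 10 markers listed for B cells, erythroid cells, macrophages and epithelial cells, 9 were in the table, each detected before thinning in at most 13.2% of all cells, the value of Lyz2, and their part in the results was not tested.

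The level of most members was higher in dividing cells than in DPre-like cells. A cluster was called dividing only if enough of its cells had Mki67, so members that rise with the cycle are not independent of that choice. Whether the members differ from other genes of the cycle was not tested by the shares of all genes given here. The DPre-like cells were not all resting, since their cluster 7 had Mki67 in 42.0% of its 131 cells. In ISP-like and DPbla-like cells together, 6 of the 9 members that could be compared (at least 20 thinned steps) were at least 2-fold higher than in DPre-like cells, where 10.8% of the 7422 genes compared were. Only Rbl2, the gene of the pocket protein p130 that marks resting cells, was at least 2-fold lower, as were 13.3% of genes. E2f4 and Rb1 stayed within 2-fold, and E2f7 had too few steps to be compared. The median log2 ratio of the 9 members was 1.67, and over all genes it was -0.18.

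**Figure D1:**
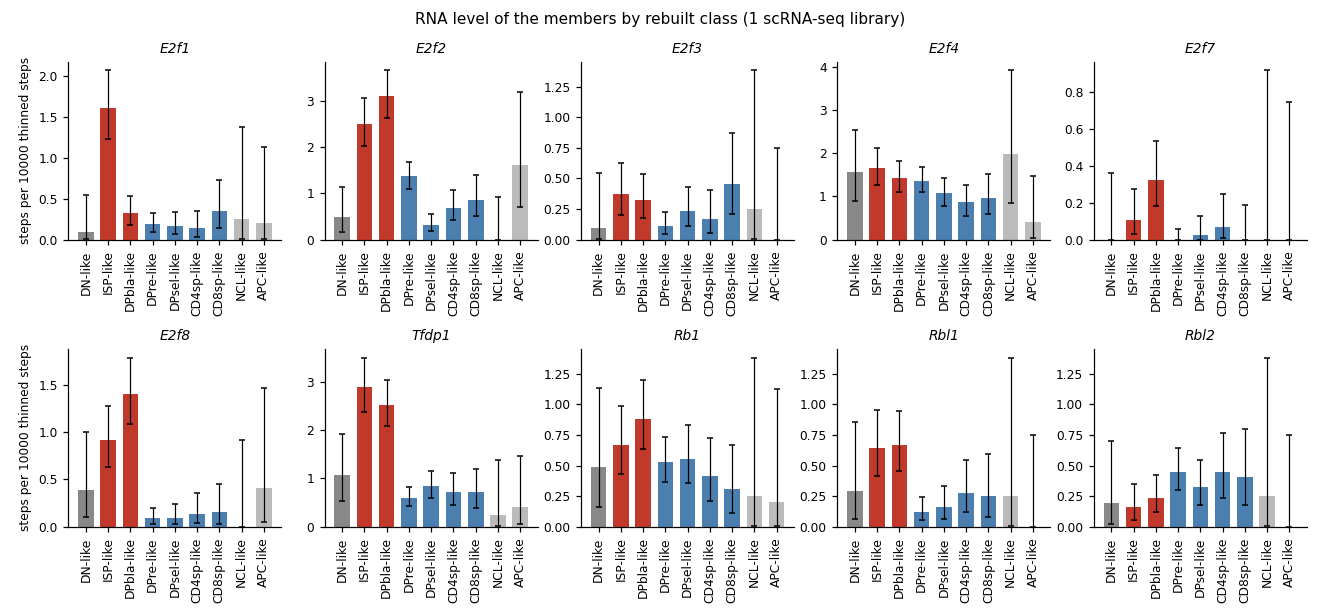
Level of each member (vertical axis, steps per 10000 thinned steps, from 0) in the 9 classes of the scRNA-seq library; bars are levels, whiskers exact Poisson 95% intervals, and red marks the ISP-like and DPbla-like classes. E2f1 reached 1.61 in ISP-like cells, which include cluster 9 of uncertain name, and at most 0.357 elsewhere. E2f4 lay between 0.862 and 1.66 in the 7 thymocyte classes.

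Among the activators, E2f1 (chr2:154559407-154569892, minus strand) was found mainly in ISP-like cells. Its level was 1.61 (1.23 to 2.07) in ISP-like cells, 0.323 (0.181 to 0.533) in DPbla-like cells and 0.186 (0.0962 to 0.325) in DPre-like cells. DPsel-like cells had 0.163, CD4sp-like cells 0.138, CD8sp-like cells 0.357 and DN-like cells 0.0974, from a single step. The interval of ISP-like cells lay above those of the 6 other thymocyte classes, whose intervals overlapped one another after thinning. Over all steps they did not all overlap. DPbla-like cells then had 0.445 (0.360 to 0.543) and CD8sp-like cells 0.521 (0.326 to 0.7885). Both intervals lay above those of DPre-like cells, 0.203 (0.129 to 0.305), and DPsel-like cells, 0.140 (0.0673 to 0.258). Of the 60 steps in ISP-like cells, 32 were in cluster 9, whose name is uncertain. Cluster 2 alone had a level of 1.24 (0.823 to 1.79). The size of the difference from DPbla-like cells therefore depends on the name of cluster 9. A step of E2f1 was found in 17.8% (13.5 to 22.7) of thinned ISP-like cells against 2.11% (0.854 to 4.31) of DPsel-like cells, and before thinning in 55.4% and 3.02%. The dividing cells together had 75 steps and the DPre-like cells 12, a ratio of 4.81 (2.60 to 9.73).

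E2f2 (chr4:136172394-136196057, plus strand) was spread more widely. Its level was 2.49 (2.01 to 3.05) in ISP-like, 3.10 (2.62 to 3.65) in DPbla-like and 1.36 (1.09 to 1.68) in DPre-like cells, and 0.325 (0.178 to 0.546) in DPsel-like cells. CD4sp-like cells had 0.690 (0.421 to 1.06), CD8sp-like cells 0.866 (0.504 to 1.39) and DN-like cells 0.487 (0.158 to 1.14). ISP-like and DPbla-like cells overlapped each other and lay above the rest of the T lineage, DPre-like cells came next, and the interval of DPsel-like cells lay below that of DPre-like cells. With all steps ISP-like cells had 2.002 (1.819 to 2.199) and DPbla-like cells 2.725 (2.509 to 2.955), intervals that did not overlap. The ratio of dividing to DPre-like cells was 2.07 (1.62 to 2.68). It was 1.63 (1.38 to 1.93) when all steps were used without thinning, so the call at 2-fold depends on the thinning.

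E2f3 (chr13:29906575-29986063, minus strand) had few steps after thinning. Over the thymocyte classes its thinned level ranged from 0.0974 in DN-like cells to 0.459 (0.210 to 0.870) in CD8sp-like cells, with 0.375 (0.205 to 0.630) in ISP-like and 0.109 (0.0437 to 0.224) in DPre-like cells, and the intervals of neighboring classes overlapped. With all steps the order differed, and ISP-like cells had the highest level, 0.651 (0.548 to 0.767), above the intervals of 0.334 (0.261 to 0.420) in DPbla-like, 0.308 (0.164 to 0.526) in CD8sp-like and 0.177 (0.108 to 0.273) in DPre-like cells. The dividing cells had 29 steps and the DPre-like cells 7, a ratio of 3.19 (1.37 to 8.63), and with all steps the ratio was 2.79 (1.76 to 4.66).

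E2f4 (chr8:105297663-105305370, plus strand) was within 2-fold between dividing and DPre-like cells. Its level ran from 0.862 (0.558 to 1.27) in CD4sp-like to 1.66 (1.27 to 2.13) in ISP-like cells, intervals that did not overlap, and the ratio of dividing to DPre-like cells was 1.12 (0.847 to 1.49). With all steps the ratio was 1.36 (1.14 to 1.63).

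The atypical members E2f7 (chr10:110745439-110787384, plus strand) and E2f8 (chr7:48866429-48881596, minus strand) were found mainly in dividing cells. E2f8 had a level of 1.40 (1.08 to 1.78) in DPbla-like and 0.911 (0.631 to 1.27) in ISP-like cells. DPre-like cells had 0.0931 (0.0342 to 0.203) and DPsel-like cells 0.0930, and the SP-like levels were 0.138 (CD4sp) and 0.153 (CD8sp). DN-like cells had 0.389 (0.106 to 0.997). Over all steps, DPbla-like cells had 1.488 (1.329 to 1.66) and ISP-like cells 0.788 (0.675 to 0.915), intervals that did not overlap. The ratio of dividing to DPre-like cells, from 99 and 6 steps, was 12.7 (5.64 to 35.5), the highest of the members compared. E2f7 had 19 thinned steps in the dividing cells and 0 of the 496 DPre-like cells had one, which allows a share of up to 0.605% by the floor of 3 counts and 0.741% by the exact binomial limit, after thinning. Before thinning 2 of these cells had one. Set against the floor of 3 steps over the DPre-like cells the ratio was 4.88, and with the counting error of both classes the level was at least 3.59-fold higher in dividing cells, from too few steps to be compared. With all steps there were 101 against 2, a ratio of 13.2 (3.55 to 110.2). The E2f7 level over all steps was 0.334 (0.261 to 0.420) in DPbla-like and 0.133 (0.0890 to 0.191) in ISP-like cells, intervals that did not overlap.

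Tfdp1 (chr8:13338751-13378448, plus strand), the partner of the typical E2F proteins, followed the same division. Its level was 2.90 (2.37 to 3.50) for ISP-like cells, 2.52 (2.08 to 3.02) for DPbla-like cells and 1.07 (0.535 to 1.92) for DN-like cells. It lay between 0.605 and 0.837 in the DPre-like, DPsel-like and SP-like classes. Over all steps, ISP-like cells had 3.00 (2.78 to 3.24) and DPbla-like cells 2.37 (2.17 to 2.59), intervals that did not overlap. The ratio of dividing to DPre-like cells was 4.44 (3.15 to 6.41). One DPre-like cluster, number 7, had Mki67 in 42.0% of its 131 cells and a Tfdp1 level of 1.47 (1.11 to 1.90) over all steps, whereas the DPre-like clusters 0 and 8 had 0.384 (0.231 to 0.599) and 0.565 (0.309 to 0.948). Without cluster 7, a choice made after seeing the data, the log2 ratio of dividing to DPre-like cells was 2.99 in place of 2.15.

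The 3 pocket protein genes differed from one another. Rbl1 (chr2:157145893-157204534, minus strand), which encodes p107, had a level of 0.643 (0.412 to 0.957) in ISP-like, 0.668 (0.454 to 0.948) in DPbla-like and 0.124 (0.0536 to 0.244) in DPre-like cells, a ratio of 5.30 (2.51 to 12.9) for the dividing cells together. Rb1 (chr14:73183673-73325822, minus strand) had 0.670 (0.434 to 0.989), 0.883 (0.634 to 1.20) and 0.527 (0.365 to 0.737) in the same classes, with a ratio of 1.5 (0.974 to 2.33). Rbl2 (chr8:91070057-91123844, plus strand), which encodes p130, went the other way, with 0.161 (0.0590 to 0.350) in ISP-like, 0.237 (0.118 to 0.424) in DPbla-like and 0.450 (0.301 to 0.646) in DPre-like cells. Its ratio was 0.452 (0.233 to 0.850) from 17 and 29 steps. With all steps the ratio was 0.507 (0.359 to 0.722) from 101 and 52 steps, and with another draw of the thinning the log2 ratio was -0.68, so the direction was the same but 2-fold was not passed. After thinning to 1300 steps, which removes many single detections, 48.6% of all cells had a step of none of the 10 members and 24 cells had at least 4 of them, and those 24 were all ISP-like (12) or DPbla-like (12). Before thinning, 81.9% of ISP-like cells had a step of Tfdp1 and 72.5% one of E2f2.

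The dividing clusters separated the members further. Levels over all steps, without thinning, are given for them, because thinned steps are few in a single cluster. Their median depth was highest in cluster 2, at 8740 steps per cell, and lowest in cluster 9, below the 4896 of cluster 13, and its part in these levels was not tested. Cells were also assigned to S phase or G2/M phase by 41 S and 54 G2/M genes other than the members. Cluster 9 had 87.6% of its cells in S phase and 0.885% in G2/M, cluster 2 had 55.7% and 9.77%, cluster 1 had 44.9% and 51.5%, and clusters 10 and 13 had 98.9% and 97.0% in G2/M. Free RNA can add to such assignments, and 137 cells lay within 0.25 of the threshold of 1 SD.

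E2f1 was highest in cluster 9, at 1.74 (1.39 to 2.14), with 1.07 (0.917 to 1.24) in cluster 2, 0.669 (0.533 to 0.828) in cluster 1, 0.165 (0.0753 to 0.312) in cluster 10 and 0.0846 (0.0174 to 0.247) in cluster 13. These intervals did not overlap except for those of clusters 10 and 13, and the order of the clusters was that of their shares of S phase cells. E2f8 had another order, with 1.96 (1.72 to 2.22) in cluster 1, 1.3 (1.01 to 1.64) in cluster 10, 1.13 (0.852 to 1.46) in cluster 9, 0.686 (0.566 to 0.824) in cluster 2 and 0.113 (0.0307 to 0.289) in cluster 13. E2f7 resembled it, at 0.430 (0.323 to 0.561) in cluster 1, 0.415 (0.257 to 0.634) in cluster 9 and 0.293 (0.167 to 0.475) in cluster 10, but 0.0477 (0.0206 to 0.0941) in cluster 2 and 0.0563 in cluster 13, from 2 steps. Cluster 2, the deepest of the dividing clusters, thus had E2f1 at a level above that of cluster 1 and E2f7 at a level below it.

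Tfdp1 lay between 2.78 and 3.15 in clusters 1, 2 and 9, whose intervals overlapped, and was lower at 1.61 (1.29 to 1.98) in cluster 10 and 0.817 (0.547 to 1.17) in cluster 13. E2f2 was 3.40 (2.91 to 3.94) in cluster 9, 2.82 and 2.85 in clusters 1 and 10, 2.20 (1.74 to 2.74) in cluster 13 and 1.58 (1.40 to 1.78) in cluster 2. In cluster 13 the intervals of E2f1, E2f7 and E2f8 overlapped those of the 3 DPre-like clusters, whereas that of E2f2 lay above the interval of DPre-like cluster 8 and overlapped those of clusters 0 and 7. Rbl1 lay between 0.423 and 0.884 in all 5 clusters, and Rb1 between 0.395 and 0.896. The Rbl1 interval of cluster 1, 0.884 (0.727 to 1.06), lay above those of cluster 2, 0.531 (0.4265 to 0.6535), and cluster 13, 0.423 (0.237 to 0.697). Rb1 was 0.424 (0.331 to 0.534) in cluster 2 and 0.395 (0.216 to 0.662) in cluster 13. The cluster 2 interval lay below those of cluster 1, 0.876 (0.720 to 1.06), cluster 9, 0.810 (0.581 to 1.10), and cluster 10, 0.896 (0.663 to 1.19). Rbl2 was lowest in cluster 2, at 0.143 (0.0917 to 0.213), and reached 0.479 (0.279 to 0.767) in cluster 13, whose interval overlapped those of the DPre-like clusters.

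**Figure D2:**
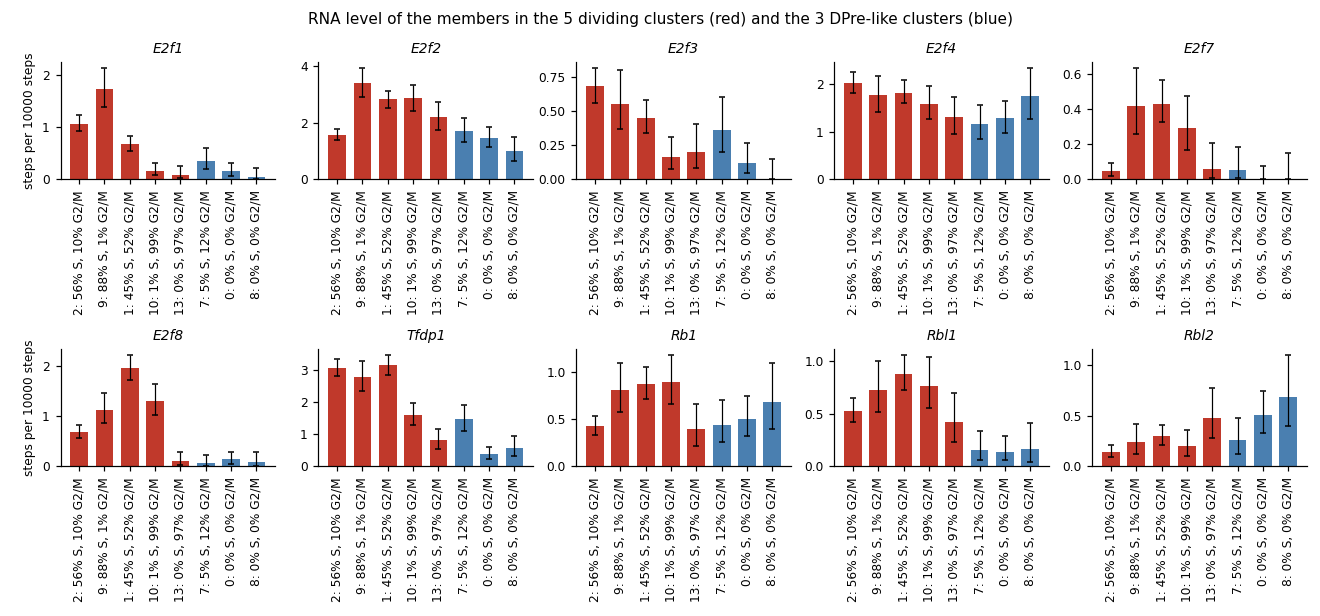
Level of each member (vertical axis, steps per 10000 steps without thinning, from 0) in the 5 dividing clusters (red) and the 3 DPre-like clusters (blue), each labelled with its shares of S and G2/M phase cells; whiskers are exact Poisson 95% intervals. E2f1 was 1.74 in cluster 9 and 0.0846 in cluster 13, E2f8 was highest in cluster 1 at 1.96, and Tfdp1 was 1.47 in the DPre-like cluster 7.

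Of the S phase cells 196 were ISP-like and 89 DPbla-like, and of the G2/M phase cells 18 were ISP-like and 259 DPbla-like, so phase and class cannot be told apart in this comparison. Between them, 1 of the 8 members compared was at least 2-fold higher in S phase, against 6.15% of the 5563 genes compared, and none was at least 2-fold lower, against 5.36%. The member was E2f1, with 64 steps in S and 11 in G2/M phase, levels of 1.59 (1.23 to 2.04) and 0.281 (0.140 to 0.503), and a ratio of 5.67 (2.96 to 11.9). In cells of neither phase its level was 0.183 (0.126 to 0.258), so that of G2/M cells was not distinguishable from it. Tfdp1 was 3.29 (2.75 to 3.90) in S and 2.07 (1.64 to 2.57) in G2/M phase, a ratio of 1.59 (1.20 to 2.12). E2f2 and E2f8 had ratios of 1.03 (0.786 to 1.34) and 1.18 (0.771 to 1.82), and both were higher in either phase than in cells of neither phase, where they had levels of 0.884 (0.752 to 1.03) and 0.161 (0.108 to 0.232). E2f3 and E2f4 had ratios of 1.68 (0.761 to 3.91) and 1.43 (0.973 to 2.12), and with another draw of the thinning E2f3 passed 2-fold, with a log2 ratio of 1.28. Rb1 and Rbl1 had ratios of 0.860 (0.508 to 1.45) and 0.896 (0.486 to 1.64). With all steps the ratios were 1.913 (1.407 to 2.625) for E2f3, 1.331 (1.139 to 1.557) for E2f4 and 1.292 (1.069 to 1.564) for E2f8. These intervals lay above 1, whereas those of E2f2, Rb1 and Rbl1 still included it. Rbl2, with 5 and 11 steps, was not compared. With all steps it had 34 in S and 61 in G2/M phase, a ratio of 0.533 (0.340 to 0.824).

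After the DPre stage, E2f2 was lower in DPsel-like than in DPre-like cells, at 0.325 against 1.36, as given above. Between SP-like and DPre-like cells few members passed 2-fold. Of the 8 members compared between the 374 SP-like and the 496 DPre-like cells, 2 were at least 2-fold higher, against 9.48% of the 6960 genes compared, and none was at least 2-fold lower, against 10.3%. Those were E2f3, with 14 and 7 steps and a ratio of 2.65 (1.00 to 7.77), and Rbl1, with 13 and 8 steps and a ratio of 2.16 (0.828 to 6.00). With all steps the ratio of E2f3 was 1.35 (0.709 to 2.59) and that of Rbl1 2.21 (1.19 to 4.24). E2f2 had a ratio of 0.558 (0.369 to 0.827) and passed 2-fold with all steps, at 0.480 (0.355 to 0.641). E2f4 had a ratio of 0.663 (0.451 to 0.963), and the intervals of E2f1, Tfdp1, Rb1 and Rbl2 included 1. With all steps those of Tfdp1 and Rbl2 still did, whereas the ratios were 1.79 (1.03 to 3.17) for E2f1 and 0.617 (0.386 to 0.969) for Rb1. Cluster 12, with 70 cells led by Tnfrsf9, Tnfrsf4 and Cd200, took the name CD4sp-like with a score of 0.392. This was the lowest score among the SP-like clusters, so its name is less certain. It held 4 of the 5 thinned E2f3 steps of CD4sp-like cells. Leaving out cluster 12 was chosen after seeing the data and left 0 members counted as 2-fold higher. E2f3 and Rbl1, with log2 ratios of 1.22 and 1.03, then had fewer than 20 steps. Without the DPre-like cluster 7, also chosen after seeing the data, the log2 ratio of Tfdp1 was 1.09 in place of 0.25. This comparison and the one with dividing cells share the DPre-like cells.

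**Figure D3:**
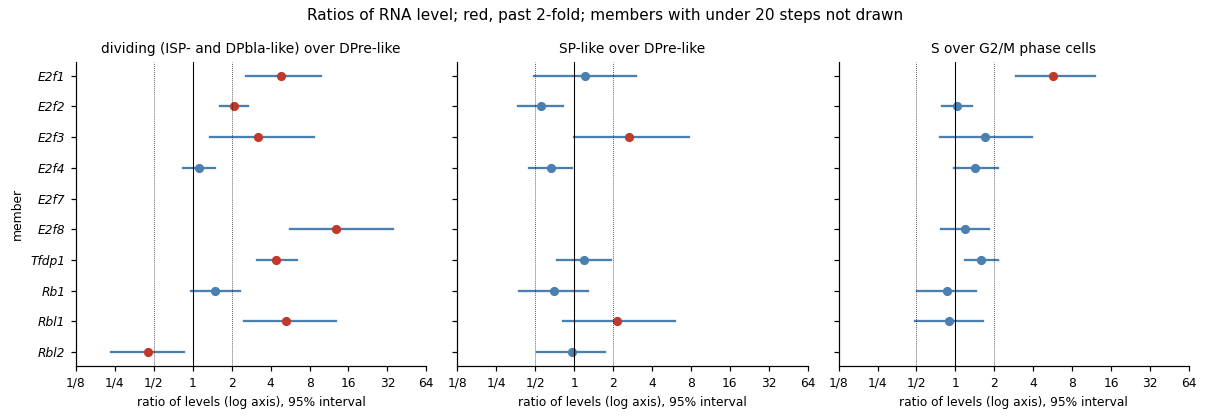
Ratios of RNA level for each member (rows) on a log axis in 3 comparisons, dividing over DPre-like cells (left), SP-like over DPre-like cells (middle) and S over G2/M phase cells (right); points are ratios, lines 95% intervals, and red points are past 2-fold (dotted lines). In the left panel 6 members lie to the right of 2 and Rbl2 to the left of 1/2, and in the right panel only E2f1 lies beyond 2.

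The genes around the members were described by lists. Among the other E2f, Dp and MuvB genes, 9 of 10 were in the table, and 4 of the 9 compared were at least 2-fold higher in dividing than in DPre-like cells and 0 lower, against 10.8% and 13.3% of all genes compared, with a median log2 ratio of 0.94. Mybl2, the B-Myb gene, was 6.80-fold and Foxm1, which drives mitotic genes with it, 6.16-fold higher. Mybl2 was also 3.63-fold higher in S than in G2/M phase cells, the single gene past 2-fold of 7 compared, against 6.15% of all genes compared. Tfdp2, the other DP partner gene, was 2.21-fold lower in SP-like than in DPre-like cells. It was the single gene past 2-fold of 4 compared there, against 10.3% of all genes compared.

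Of the genes upstream of the pocket proteins, 7 of the 12 compared were at least 2-fold higher in dividing cells and 0 lower. Over all genes compared the shares were 10.8% and 13.3%. The median log2 ratio of the list was 1.33. Ccne2 (cyclin E2) was 15.2-fold, the CDK inhibitor gene Cdkn2c 6.50-fold and Skp2, part of a ubiquitin ligase, 4.47-fold higher. In SP-like over DPre-like cells 1 of 10 was higher and 2 were lower, against 9.48% and 10.3% of all genes compared. The D-type cyclins went opposite ways there, Ccnd2 being 37.6-fold higher (levels of 10.5 and 0.279) and Ccnd3 2.84-fold lower (6.48 and 18.4), and the CDK inhibitor gene Cdkn1b was 2.47-fold lower. Between S and G2/M phase cells, 5 of 12 were higher in S phase, against 6.15% of all genes compared. Among them were Ccne2 (12.7-fold), which is itself one of the genes that assign S phase, and Cdk4 (2.33-fold). In the other direction 1 was lower, against 5.36%, the CDK inhibitor gene Cdkn2d (2.58-fold).

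Mki67 was needed for a cluster to be called dividing, so targets of the cycle are not independent of that choice. Of the G1/S target genes, 38 of the 40 compared were at least 2-fold higher in dividing cells and 0 lower, against 10.8% and 13.3% of all genes compared. Their median log2 ratio was 2.26. The replication genes Clspn, Hells and Rrm2 were 16.9-fold, 15.5-fold and 12.0-fold higher. All 20 G2/M target genes were at least 2-fold higher, with a median log2 ratio of 2.46, among them Nusap1 (13.0-fold), Plk1 (12.9-fold) and Ccna2 (11.7-fold). In SP-like over DPre-like cells, 2 of 31 G1/S targets were higher and 1 lower, against 9.48% and 10.3% of all genes compared. Against the same shares, 0 of 16 G2/M targets were higher and 6 lower, among them Ccnb2 (5.03-fold lower), Cenpf (3.92-fold) and Cenpe (2.81-fold). The S and G2/M phases were assigned from genes that overlap these lists, so their counts between phases (25 of 40 G1/S targets higher and 20 of 20 G2/M targets lower in S phase, led by Ung, Cdt1 and Gins2 and by Cenpf, Cdc20 and Ube2c) follow from the assignment. Among all genes compared, 6.15% were higher and 5.36% lower in S phase.

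The genes whose levels over the 16 clusters were most like those of each member were picked among the 6768 genes with at least 50 thinned steps, by Pearson's r over clusters that share 1 library. E2f7 had too few steps for this. For E2f1 these were Rfc3 (r = 0.97), Mcm3 (0.97) and Cdc6 (0.96), and for E2f8 they were Asf1b (0.97), Rrm2 (0.96) and Rad51ap1 (0.96). For Tfdp1 they were Lig1 (0.97), Hpf1 (0.96) and Dut (0.96), and for E2f2 Rdx (0.92), Rnaseh2b (0.92) and 4930579G24Rik (0.91). Rbl1 was close to Uchl5 (0.92) and Rfc4 (0.91), and Rb1 to Eri1 (0.90), Hnrnpu (0.88) and Ppp1cc (0.88). The scarcer or flatter members had lower values, E2f4 with Inip (0.83), Hdlbp (0.82) and Btg3 (0.80), E2f3 with Rif1 (0.78), Cul1 (0.75) and Mex3c (0.74), and Rbl2 with Snrnp48 (0.89), Abhd18 (0.81) and Zfp146 (0.81). Among the members themselves r was 0.86 for E2f8 and Tfdp1 and 0.44 for E2f1 and E2f8, and Rbl2 had its lowest value with E2f2 (-0.36).

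Accessibility was then read at the same genes. The signal of a promoter is the count in the 1 peak of 4000 bp with most counts among the peaks that hold a start of the gene (GENCODE vM21), per 10000 counts in all peaks of the same cells. The median total per cell was 3377 in DN, 3866 in DP, 2571 in CD4 and 3935 in CD8 sorted cells and 5792 in total thymocytes, and a single promoter had few counts in a cell. The promoter of E2f4 also holds a start of Exoc3l, and the 2 genes cannot be told apart there.

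The E2f3 promoter (chr13:29984206-29988205) had a signal of 1.16 (0.971 to 1.38) in DN, 1.38 (1.07 to 1.76) in DP, 1.25 (0.978 to 1.58) in CD4 and 1.40 (1.09 to 1.76) in CD8 sorted cells and 1.15 (1.06 to 1.23) in total thymocytes. These intervals overlapped, and among cells with at least 1000 counts 37.9% (DP) to 50.5% (CD8) had a count. The E2f1 promoter (chr2:154568030-154572029) had 0.352 (0.25 to 0.481), 0.355 (0.207 to 0.569), 0.323 (0.191 to 0.510) and 0.323 (0.185 to 0.525) in the DN, DP, CD4 and CD8 sorts. The E2f8 promoter (chr7:48879158-48883157) had 0.271, 0.335, 0.233 and 0.323 in the same order. The intervals of the 4 sorts overlapped at each of these 3 promoters.

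The Rbl2 promoter (chr8:91068695-91072694) had 0.487 (0.366 to 0.636) in DN, 0.711 (0.492 to 0.993) in DP, 0.555 (0.377 to 0.788) in CD4 and 0.384 (0.231 to 0.600) in CD8 sorted cells, with overlapping intervals. The remaining promoters gave few counts in the sorts. Signals ran from 0.0717 to 0.202 for E2f2 (chr4:136170237-136174236), from 0.0418 to 0.215 for E2f4 (chr8:105295690-105299689), from 0.162 to 0.251 for E2f7 (chr10:110743343-110747342) and from 0.108 to 0.269 for Tfdp1 (chr8:13336671-13340670). They ran from 0.0180 to 0.0836 for Rb1 (chr14:73323946-73327945) and from 0.0606 to 0.161 for Rbl1 (chr2:157202360-157206359). The lowest E2f4 value came from 2 counts in DP sorted cells and the lowest Rb1 value from 2 counts in DN sorted cells.

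In total thymocytes the E2f1 promoter had 0.729 (0.665 to 0.799), E2f8 0.606 (0.547 to 0.669) and Tfdp1 0.439 (0.389 to 0.493). The 36 plates of total thymocytes ranged from 0.335 to 1.49 for E2f1 (median 0.738), from 0.231 to 1.20 for E2f8 (0.610) and from 0 to 0.806 for Tfdp1 (0.424). The sorts and the plates came from different label series and depths, which cannot be told apart from the sorting, and no ratio between them was taken.

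**Figure D4:**
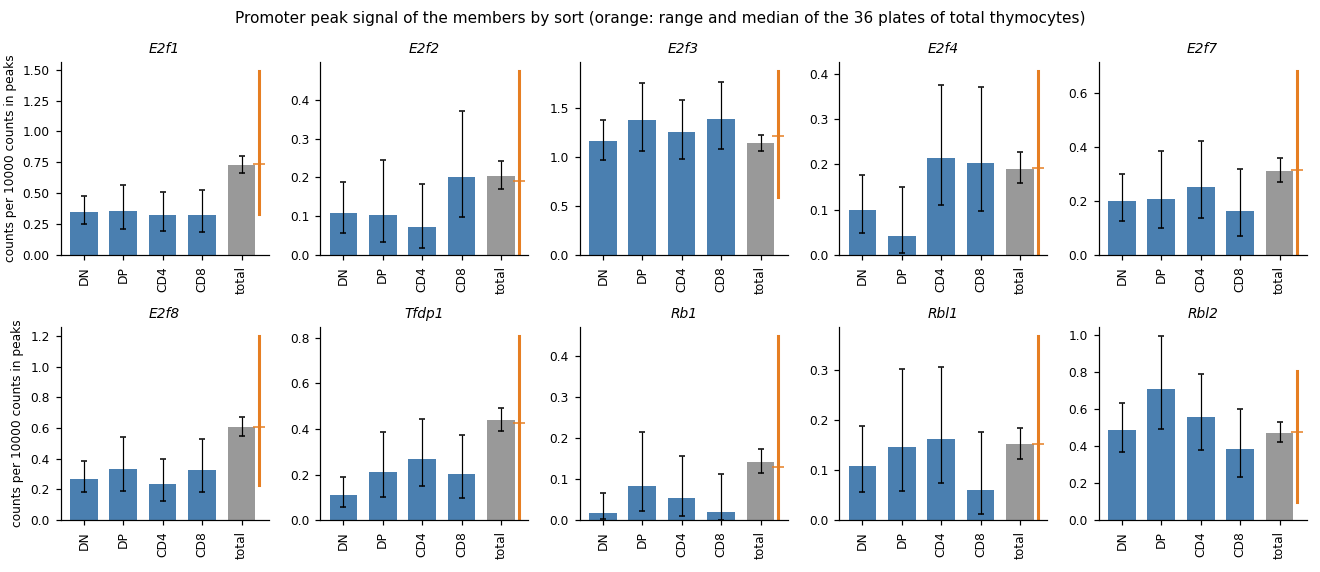
Signal of the promoter peak of each member (vertical axis, counts per 10000 counts in peaks, from 0) in the 4 sorts (blue) and total thymocytes (grey); whiskers are exact Poisson 95% intervals, and the orange line spans the lowest to the highest of the 36 plates with the median marked. For E2f3 the 5 groups lie between 1.15 and 1.40, and for E2f1 the 4 sorts lie between 0.323 and 0.355 and total thymocytes at 0.729.

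Only 3 members had at least 50 counts in the SP and DP sorts together, E2f1, E2f3 and Rbl2, and 0 of them differed by 1.5-fold in either direction, against 22.1% of the 3824 promoters compared. The ratios of SP (CD4 and CD8) to DP sorted cells were 0.909 (0.494 to 1.73) for E2f1, 0.957 (0.709 to 1.3) for E2f3 and 0.668 (0.424 to 1.06) for Rbl2. In DN over DP sorted cells the same 3 members were compared and 0 differed by 1.5-fold, against 24.6% of 4043 promoters, with ratios of 0.990 (0.547 to 1.87), 0.843 (0.622 to 1.15) and 0.685 (0.438 to 1.08). The intervals of E2f1 and Rbl2, and that of E2f3 in DN over DP, include differences of 1.5-fold, so at this depth such differences were not detectable. The numbers in the cell labels fall into series, which the labels do not explain. Within the series from 4000, the log2 ratio of SP to DP at Rbl2 was -1.0 and that at E2f3 was 0.14. In the series from 31000 the Rbl2 signal was higher in the SP sorts, at 0.849 (0.388 to 1.61) in CD4 and 0.956 (0.197 to 2.79) in CD8 against 0.186 (0.00471 to 1.04) in DP, from 9, 3 and 1 counts and with overlapping intervals. At E2f4 the counts were 22 in SP and 2 in DP sorted cells, a ratio of 5.00 (1.23 to 43.8) from too few counts to be compared, and over all peaks nearest to E2f4 the log2 ratio was -0.09. Over all peaks nearest to a member, Rbl1 (log2 ratio -1.19) and E2f2 (-0.59) passed 1.5-fold in SP over DP, and Rbl1 (-0.64) and Rbl2 (-0.63) in DN over DP, all lower. No share over all genes was taken for such sums of peaks, so these calls are not set against a background.

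Of the 124 peaks at the loci, which overlap one another in part, 3 had at least 50 counts in SP and DP sorted cells and 5 in DN and DP sorted cells, and 0 of either differed by 1.5-fold, against 32.6% and 33.4% of single peaks. Away from the starts, the E2f2 locus held a peak (chr4:136175833-136179832) with 381 counts over all cells. It had 37 counts in DN sorted cells (signal 0.334), 23 in DP sorted cells (0.481) and 16 in SP sorted cells (0.152). The ratio of DN to DP was 0.694 (0.402 to 1.22), and the SP and DP counts together stayed under 50. A peak that overlaps it inside E2f2 (chr4:136178618-136182617), whose center is 8223 bp after the GENCODE start and which covers the start of the second RefSeq promoter, had 278 counts over all cells against 162 at the first start. Its signal was 0.117 in DN, 0.146 in DP, 0.197 in CD4 and 0.202 in CD8 sorted cells and 0.370 in total thymocytes. A peak inside Rbl2 (chr8:91075609-91079608), 7450 bp after a start, had signals of 0.117, 0.439, 0.215, 0.243 and 0.226 in the same order. A peak 7119 bp before E2f1 (chr2:154575012-154579011) had 146 counts, and one 27126 bp before E2f8 (chr7:48906723-48910722) had 84, of which 27 were in DN sorted cells (signal 0.244) and 3 in DP sorted cells (0.0627).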

How the data were processed

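Droplet scRNA-seq of C57BL/6 thymocytes (1 library, 1993 cells) and scATAC-seq of sorted or total thymocytes were analysed. The authors aligned the RNA reads with Cell Ranger 1.3.1 to GRCm38.p5, removed poor cells and rare genes, and deposited log2 values after quantile normalization, with zeros kept. For accessibility, the authors deposited raw counts per peak and cell for 138317 peaks; 1626 cells were used and 362, whose labels carry no plate or group, were not analysed here. Peak centers within 2000 bp of a GENCODE vM21 start made up 26.0%, and 7.72% after a shift of 100000 bp, so GRCm38 was used. Molecule counts were not used here: each value was replaced by its step, that is by its place among the different values found in that cell, which counts abundant genes too low. Steps per cell ran from 1356 to 22539 (median 2558), and each cell was thinned to 1300.

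Cells were clustered in Seurat 5.3.0 (R 4.3.3) with 20 principal components, 30 neighbors and a resolution of 2, after the members and pathway genes had been left out. Each cluster was named after its best-scoring markers, with at least 50% Mki67 needed for ISP and DPbla. No doublet caller was run, but one alternative dropped 106 cells, the 5% richest in genes of each cluster. RNA ratios were taken for genes with at least 20 steps and called at 2-fold, promoter ratios for genes with at least 50 counts and called at 1.5-fold, and intervals came from scipy 1.17.1. The ratio step was tested on simulated data. A floor of 3 steps was set for groups at 0. All members were named, with at most 3 genes per list, direction and comparison (largest ratio, at least 50 steps) and the 3 genes nearest to each member. Values of 2 genes under these rules and the marker lists are not reported here. The members and lists were chosen with earlier results of these data known. Alternatives were other clusterings, no thinning, another thinning draw, fewer cells, a lower minimum, all peaks of a locus, deeper cells, shares of cells and label series.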

Additional observations from a re-analysis of the deposited data

How the results depend on the processing

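The 6 members at least 2-fold higher in dividing cells numbered 5 to 7 under the 10 alternatives run, 2 of them chosen after seeing the data; without thinning and with another thinning draw E2f7 took the place of E2f2. Of 275 recomputed values of single members, 269 lay within the interval of the main value and 6 did not. The count of members lower in dividing cells (1) was 0 without thinning and with another thinning draw. The count higher in SP-like cells (2) was 0 at resolution 1 and without the low-score cluster, and 1 with 20 neighbors, with 30 principal components, without thinning, with another draw and without the DPre-like cluster with most Mki67; at resolution 1 the log2 ratios were 1.27 for E2f3 and 0.95 for Rbl1 and without the low-score cluster 1.22 and 1.03 (main values 1.41 and 1.11, each from 21 steps), so that E2f3 in both and Rbl1 in the latter were lost by falling under the minimum of 20 steps, not by the fold. The count lower (0) was 1 without thinning and with another draw. Between phases, 2 members were higher in S phase with another draw, and 1 was lower with a minimum of 5 steps. For SP over DP promoters, 2 of 9 members passed 1.5-fold over all peaks of a locus, and 1 of 2 did in cells with at least 1000 counts, with label numbers from 4000 and with CD8 cells alone. For DN over DP, 2 of 9 passed over all peaks. No share over all genes was taken under the alternatives, so their counts are not set against a background. With label numbers from 31000, E2f3, the 1 member compared, passed with a log2 ratio of -1.04. Its DN side joined 2 series, 24 cells numbered from 31000 and 62 from 32000, while its DP cells were numbered from 31000. In the series from 31000 alone the E2f3 signal was 1.62 in DN (12 counts) and 2.60 in DP (14 counts), too few to be compared. For SP over DP, label numbers from 31000 left no member to compare. The cause of the other moves was not tested. No paired analysis was possible because each group is 1 sample. The depth of 1300 steps per cell limits E2f3, E2f7 and Rbl2, and few counts in the sorts limit the promoters other than E2f1, E2f3 and Rbl2. All intervals cover counting error only, and no animal is named for a cell.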
